A study of Mus musculus with 4 samples.

Results

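A set of 8 long noncoding RNA genes was read across 4 mouse oral cancer cell lines, out of the 34721 entries of the deposited expression table. They were chosen by name with their expression in these lines already known, and their Ensembl identifiers were matched to symbols through GENCODE M21. The genes are Gas5, Snhg1 and Snhg12, which host small nucleolar RNAs (snoRNAs), the nuclear RNAs Malat1 and Neat1, the Myc neighbour Pvt1, Miat, and U90926. GENCODE M21 classes 7 of them as long noncoding, and U90926 is listed there as protein-coding although its RefSeq entry is noncoding.

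The lines were raised from male C57BL/6 mice whose buccal mucosa was exposed to the carcinogen 7,12-dimethylbenzanthracene (DMBA) until an oral tumor formed. AOC3 and AOC3-LN were derived from the primary tumor and a lymph node metastasis of mouse 3, and AOC11 and AOC11-LN came from the same pair of sites in mouse 11. All were grown in DMEM/F12 with serum and had been passed under the skin of further C57BL/6 mice, and none of the 4 libraries represents a drug treatment. Each line is 1 library and each pair of lines is 1 mouse, so no difference between lines has a replicate check, and mouse, tumor and line cannot be told apart.

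A long noncoding RNA is a long transcript that is not known to be translated, and its work is done by the RNA, by the act of transcription, or by a shorter RNA cut from it. The host genes belong to the last kind: their introns release snoRNAs, which guide chemical modification of ribosomal and spliceosomal RNA, while the spliced exons are often destroyed by nonsense-mediated decay. Malat1 gathers in nuclear speckles, where splicing factors collect, and Neat1 is the scaffold on which paraspeckles are built. Pvt1 lies beside Myc and is often gained together with it in tumors, and Snhg1, Snhg12, Neat1 and Malat1 are commonly found at high levels in carcinomas.

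The lines were epithelial by their markers. Of 8 squamous epithelial genes, 8 reached 1 FPKM in AOC3 and AOC3-LN and 7 in AOC11 and AOC11-LN, with summed levels between 1135 and 1560 FPKM; FPKM is the number of sequenced fragments scaled to transcript length and to library size. The exception was Trp63, the master regulator of squamous cells, at 0.0848 FPKM in AOC11 and 0.841 in AOC11-LN. None of 8 fibroblast genes reached 1 FPKM in any line (summed levels 0.246 to 1.17), none of 5 endothelial genes did (0.328 to 0.481), and of 8 leukocyte genes Cd68 alone did (summed levels 4.51 to 13.0). Spacing of the low values gave approximate depths of 28300000 to 33900000 fragments.

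Of the 8 genes, 7 reached 1 FPKM in at least 1 line, as did 14165 entries of the table, and Miat did not. Differences were taken between lines on the scale of quantile-normalized log2(FPKM + 1), on which a value of 1 is a 2-fold difference and changes of low genes are understated. No test was run, because the genes were chosen with these values known and each line is a single library, and "past 2-fold" means only that the difference exceeded 1 in size. Between AOC3-LN and AOC3, 0 of the 7 genes were past 2-fold, against 5.53% of all genes and 5.5% of the 891 entries of long noncoding types that passed the same filter. Between AOC11-LN and AOC11 the number was 1, U90926, against 8.11% of all genes and 5.16% of the long noncoding entries. Between the primary lines AOC3 and AOC11 it was 3, Malat1, Snhg12 and U90926, against 11.9% and 15.3%. Between the lymph node lines AOC3-LN and AOC11-LN it was 2, Snhg12 and U90926, against 16.3% and 19.3%. At a 1.5-fold threshold the numbers were 1, 2, 5 and 4 in the same order of comparisons, against 13.8%, 24.6%, 28.8% and 36% of all genes. Each library enters 2 of these comparisons, and since the genes were selected with these values in view, nothing is read from their counts.

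**Figure D1:**
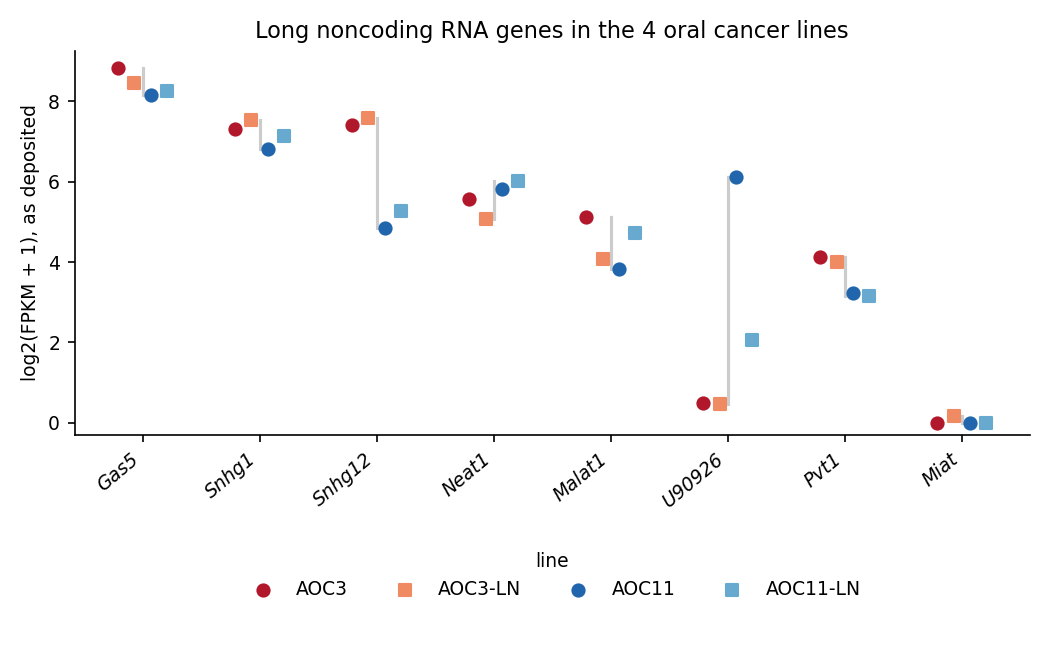
Level of each gene in each line as log2(FPKM + 1) of the deposited values. Circles are primary lines, squares lymph node lines, red shades mouse 3 and blue shades mouse 11, and the grey bar spans the lowest to the highest line; Gas5 lies highest in all lines, and U90926 spreads most widely, from 0.386 to 69.0 FPKM.

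**Figure D2:**
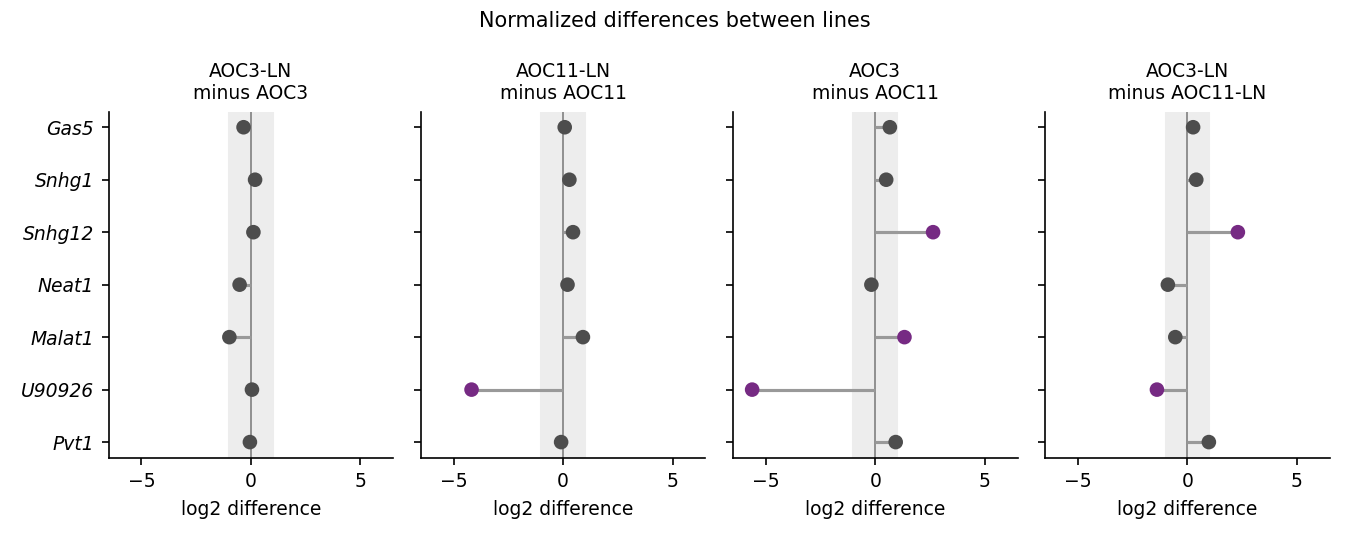
Normalized log2 difference of the 7 genes that passed the filter, 1 panel per comparison. Points outside the grey band, which marks differences under 2-fold, are in purple: U90926 in the AOC11 pair (-4.18), Snhg12, Malat1 and U90926 between the primary lines, and Snhg12 and U90926 between the lymph node lines.

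Gas5 was the most abundant of the 8 in every line. It is a growth-arrest-specific transcript whose spliced RNA accumulates when growth or translation stops, and its introns hold snoRNAs of the box C/D kind, which direct methylation of ribosomal RNA. The gene lies on the plus strand of mm10 at chr1:161034422-161038539, with 25 annotated transcripts of 346 to 2556 bases. Its level was 452 FPKM in AOC3, compared with 352 in its lymph node partner AOC3-LN, and 284 in AOC11 and 304 in AOC11-LN, so the highest line exceeded the lowest by 1.59-fold. It ranked between the 4th and the 7th of the 891 expressed long noncoding entries. Both lines of mouse 3 lay above both lines of mouse 11, and the lymph node lines lay below the primary line in mouse 3 (-0.33) and just above it in mouse 11 (0.08). The AOC3 and AOC11 lines differed by 0.67 at the primary site and by 0.26 at the lymph node, both under 2-fold.

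Snhg1, the host of a further set of box C/D snoRNAs, starts 106 bases from Slc3a2, which encodes the heavy chain of an amino acid transporter and is read in the opposite direction. It spans chr19:8723475-8726443 on the plus strand, with 18 transcripts. Its level was 158 FPKM in AOC3 and 186 in AOC3-LN, against 111 in AOC11 and 140 in AOC11-LN. The order of the lines was AOC3-LN, AOC3, AOC11-LN and AOC11, and no step or pair of lines reached 2-fold; the lymph node line was the higher one by 0.19 in mouse 3 and by 0.29 in mouse 11. Slc3a2 measured 134, 167, 132 and 169 FPKM in AOC3, AOC3-LN, AOC11 and AOC11-LN, higher in the lymph node line of each mouse by 0.29 and 0.32, and nearly equal between the mice (0.03 and -0.00). The other neighbour, the ribosome assembly factor Wdr74, measured 56.2, 76.7, 66.8 and 71.9 FPKM.

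Snhg12 set the mice apart. It lies at chr4:132308623-132311024 on the plus strand, with 10 transcripts of 422 to 1538 bases, and hosts snoRNAs of both the box C/D and the box H/ACA kind, the second of which guide pseudouridine formation. Its level was 168 FPKM in AOC3 and 190 in AOC3-LN, but 27.6 in AOC11 and 37.6 in AOC11-LN. The mouse 3 lines thus stood 6.08-fold above the mouse 11 lines at the primary site and 5.06-fold at the lymph node, with normalized differences of 2.64 and 2.30. Within a mouse the lymph node line was higher by 0.12 and 0.45, under 2-fold. Against Snhg1 in the same library, Snhg12 was about as abundant per length in the mouse 3 lines (ratios of 1.07 and 1.02) and less abundant in the mouse 11 lines (ratios of 0.249 and 0.268). In bulk RNA, fewer cells expressing a gene and less RNA per cell cannot be told apart.

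The transcribed starts of these genes are shown because host genes are known for beginning with a run of pyrimidines (C and T), the 5′ terminal oligopyrimidine tract of transcripts that respond to growth signals through mTOR. The sequences are RefSeq windows of GRCm38.p6, the build of mm10, from 20 bases before to 30 bases from the annotated start, and capitals mark the run of C and T that covers the first transcribed base. Of the 8 genes, 6 had such a window. Gas5 at chr1:161035146-161035195, Snhg1 at chr19:8723467-8723516 and Snhg12 at chr4:132308658-132308707 are on the plus strand, and Malat1 at chr19:5802643-5802692, given for contrast, is on the minus strand.
Gas5: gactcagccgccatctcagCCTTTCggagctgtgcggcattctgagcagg
Snhg1: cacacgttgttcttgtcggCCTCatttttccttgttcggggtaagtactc
Snhg12: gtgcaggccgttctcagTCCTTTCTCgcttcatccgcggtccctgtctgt
Malat1: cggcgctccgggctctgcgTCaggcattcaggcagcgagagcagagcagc
The run measured 9 bases in Snhg12, 6 in Gas5, 4 in Snhg1 and 2 in Malat1, and runs at least that long were present in 3.03%, 7.25%, 14.0% and 24.4% of all 32851 windows. In each of these genes the run begins before the annotated start, so its transcribed part is shorter than the length given. An upstream Gas5 window in the same table had none. Over the host genes named here and in the list of other hosts, 7 of 18 with a window had a run of 4 bases or more, against 16.0% of all genes. Snhg12, Gas5 and Snhg1 carry such a run and differed in how much they varied between lines, by 6.87-fold, 1.59-fold and 1.67-fold from the lowest to the highest.

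The snoRNAs that the introns release were next looked up. Within Gas5 GENCODE places 10 snoRNA entries, within Snhg1 8 and within Snhg12 5. Boxes C and D were found at their usual ends in 8, 4 and 1 of them, and an ACA box 3 bases from the end in 1, 0 and 3. The Gas5 entry with ACA, Mir5117, also has boxes C and D. Snord80 in Gas5 and Snora16a in Snhg12 each appear under more than 1 overlapping identifier, so these are counts of entries and not of distinct snoRNAs. A few are printed from the GENCODE M21 transcripts, with boxes C (RTGATGA, R being A or G) and D (CTGA), or the ACA box, in capitals. Snord47 lies in Gas5 at chr1:161038082-161038158, Gm25855 in Snhg1 at chr19:8723993-8724064, Snord99 in Snhg12 at chr4:132310691-132310764 and Snora61 in Snhg12 at chr4:132310240-132310369, all on the plus strand.
Snord47: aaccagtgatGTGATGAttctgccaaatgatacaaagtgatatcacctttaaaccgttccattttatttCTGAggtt
Gm25855: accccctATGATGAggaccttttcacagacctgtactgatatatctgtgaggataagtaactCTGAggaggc
Snord99: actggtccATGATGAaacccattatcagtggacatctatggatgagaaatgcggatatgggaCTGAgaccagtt
Snora61: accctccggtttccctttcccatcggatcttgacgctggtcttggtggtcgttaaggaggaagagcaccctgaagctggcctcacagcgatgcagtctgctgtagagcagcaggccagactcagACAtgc
These are 72 to 130 bases long and carry no poly(A) tail, and the libraries were made from purified mRNA. The table has no entry for any snoRNA in Gas5. For Snord22, the single Snhg1 snoRNA with an entry, the value was 11.5 FPKM in AOC3 and about 0 in the other lines. In Snhg12, Snora61 was at 2.93 FPKM in AOC3, 4.21 in AOC3-LN and about 0 in both mouse 11 lines, and Snora44 was at 4.77 in AOC3 and listed at 0 elsewhere. Annotated exons of the hosts overlap these snoRNAs, so fragments of host and snoRNA may have been split between them, and the small values are uncertain. The output of snoRNAs was therefore not measured here.

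Genes around Snhg12 were then examined. Its nearest protein-coding neighbours are Rab42, which was near 0 in every line (0.103 FPKM at most), and Trnau1ap, a factor for selenocysteine insertion that is read toward Snhg12 from the opposite strand and measured 46.1 FPKM in AOC3 and 55.1 in AOC3-LN, against 30.1 in AOC11 and 48.9 in AOC11-LN. Of 29 expressed entries within 500 kb of the Snhg12 start, 24 were higher in AOC3 than in AOC11 and 22 were higher in AOC3-LN than in AOC11-LN, with median differences of 0.42 and 0.42 where the medians over all genes were -0.02 and 0.03. Of them, 7 and 5 were higher past 2-fold and 1 was lower in each case, where 6.25% and 7.58% of all genes were higher and 5.69% and 8.69% lower. Several of these are short RNAs: Snora44 and Snora61 lie inside Snhg12 and overlap its exons, and Rnu11 and Gm22033 are further small entries. Snora73a and Snora73b start 44.4 and 43.9 kb from Snhg12, just past the start of the host gene Snhg3 (45.1 kb) on the same strand. They may therefore not be separate from Snhg3 in these counts. Without small RNA entries, a choice made after seeing the data, 23 genes remained, of which 19 were higher at each site, 3 past 2-fold and none lower past 2-fold, with medians of 0.39 and 0.42. With other scalings the number higher was 22 to 25 at the primary site and 21 to 22 at the lymph node.

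Those higher past 2-fold at both sites besides Snora61 were the TFIID subunit gene Taf12 (34.3 and 47.8 FPKM in the mouse 3 lines, 16.0 and 20.1 in the mouse 11 lines), the noncoding RNA Gm17300, and the host gene Snhg3. Snhg3 starts 45.1 kb from Snhg12 and measured 11.98 FPKM in AOC3 and 21.7 in AOC3-LN, against 2.92 in AOC11 and 5.20 in AOC11-LN, with differences of 1.68 and 2.02 between the mice. Nearby Phactr4 differed by 0.07 and 0.14 at the primary and lymph node sites, and Rcc1 by 0.10 and 0.64.

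**Figure D3:**
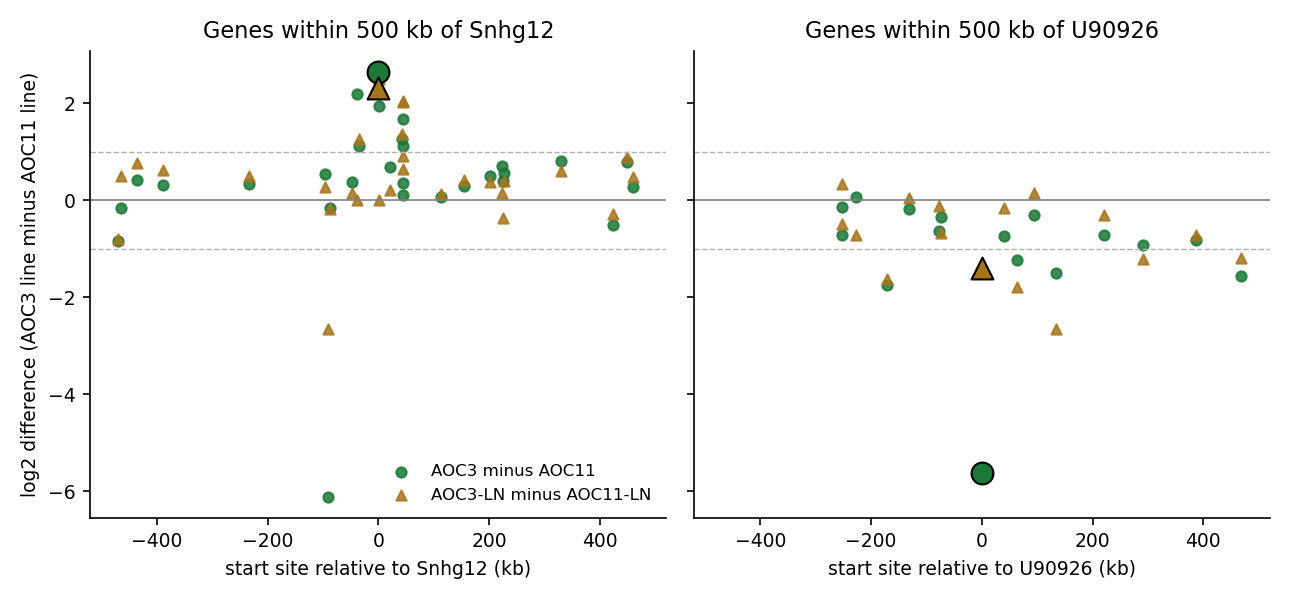
Normalized log2 difference of each expressed gene within 500 kb, AOC3 minus AOC11 (circles) and AOC3-LN minus AOC11-LN (triangles), against the distance of its start from Snhg12 (left) or U90926 (right); large outlined symbols are these genes themselves and dashed lines mark 2-fold. Around Snhg12 24 of 29 genes lie above 0 at the primary site, and around U90926 1 of 15 does; the low pair on the left is the short miRNA entry Gm22033.

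Other snoRNA host RNAs were described as a group, from a list chosen with earlier results of these data known, so nothing is read from its counts. Of 18 symbols listed, 15 had entries, and 16 entries passed the filter, because Snhg14 is spread over several identifiers. Between the primary lines 5 of the 16 were higher past 2-fold in AOC3 and none was lower, where 6.25% of all genes were higher and 5.69% lower. Between the lymph node lines 3 were higher in AOC3-LN and 1 was lower, where 7.58% of all genes were higher and 8.69% lower, and with median scaling the number higher was 5. The medians were 0.54 and 0.53, beside -0.02 and 0.03 over all genes, and stayed between 0.44 and 0.54 and between 0.43 and 0.64 under the other scalings. The 5 were Snhg9, Snhg3, Snhg20, Snhg5 and an Snhg14 entry, and the 3 were Snhg3, Snhg8 and that Snhg14 entry; a different Snhg14 entry was the lower one. Between the lymph node and primary lines 0 of the 16 were past 2-fold in mouse 3, where 5.53% of all genes were. In mouse 11 Snhg9 and an Snhg14 entry were higher and none was lower, where 4.97% of all genes were higher and 3.14% lower.

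The entries with the largest differences were Snhg9, Snhg3 and an Snhg14 entry. Snhg9 stood at 6.87 FPKM in AOC3 and 4.44 in AOC3-LN, against about 0 in AOC11 and 2.54 in AOC11-LN, and the Snhg14 entry was near 0 in all lines but AOC11-LN, where it was 2.29. Among the abundant hosts, chosen here for their level, Snhg5 measured 83.1, 83.7, 32.7 and 43.4 FPKM in AOC3, AOC3-LN, AOC11 and AOC11-LN, and Zfas1 measured 103, 103, 66.2 and 95.2. Snhg6 and Snhg17 varied less, at 69.4 to 89.9 and 25.3 to 31.2 FPKM. The mouse 3 lines were thus not above the mouse 11 lines for every host: Dancr, Snhg17 and Snhg15 were lower in AOC3 than in AOC11 (-0.29, -0.09 and -0.26), all under 2-fold.

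**Figure D4:**
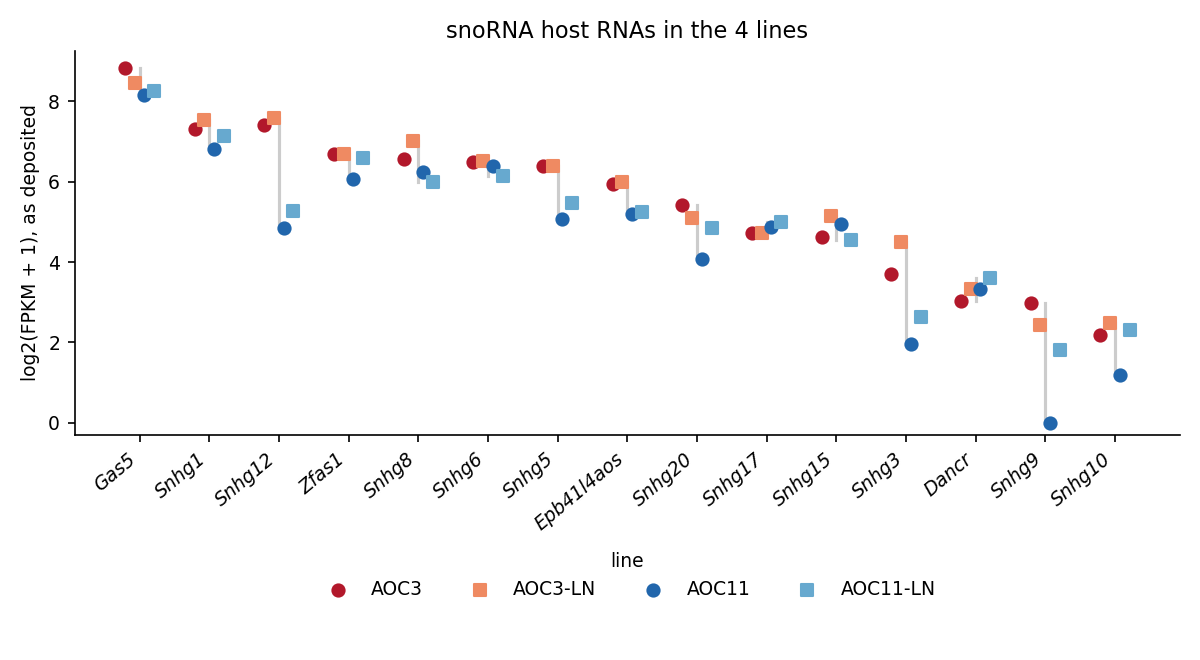
Level of Gas5, Snhg1, Snhg12 and the other snoRNA host RNAs that passed the filter, as log2(FPKM + 1) of the deposited values; Snhg14, with several entries, is left out. Red symbols are the mouse 3 lines and blue the mouse 11 lines, and the grey bar spans the 4 lines; the bars of Snhg12 and Snhg9 are the longest.

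A pair of lists holds the proteins that act with these RNAs. Both lists were chosen with earlier results of these data known, so nothing is read from their counts. Of 13 snoRNP proteins, which bind snoRNAs and carry out the modification, 13 passed the filter and none was past 2-fold in any comparison. The share of all genes past 2-fold ran from 5.53% to 16.3% over the comparisons. The members with the largest differences were Nop10 (57.2, 80.2, 39.4 and 64.0 FPKM in AOC3, AOC3-LN, AOC11 and AOC11-LN) and Gar1 (96.0, 85.6, 158 and 135), both of the H/ACA particle, and the assembly factor Ruvbl1 (75.0, 73.9, 100.0 and 113). Between the mice Gar1 differed by -0.69 and -0.60 and Nop10 by 0.58 and 0.34.

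Of 17 nonsense-mediated decay factors, which act on spliced host RNAs, 17 passed and 1 was higher past 2-fold in each comparison, with none lower. Over the comparisons 2.11% to 7.58% of all genes were higher past 2-fold and 3.14% to 8.69% lower. Magohb, a subunit of the exon junction complex, was at 34.1 FPKM in AOC3 and 33.0 in AOC3-LN, against 1.37 in AOC11 and 47.4 in AOC11-LN. Its near-identical copy Magoh was at 103, 121, 120 and 137 in the same order, so its level in AOC11 lay above that in AOC3 and below that in AOC11-LN. How reads were assigned between the pair was not tested. The helicase Dhx34 was at 6.70, 24.3, 7.63 and 10.5 FPKM. The nuclease Smg6 measured 15.2, 10.9, 7.59 and 8.04 FPKM, and the central helicase Upf1 was at 33.6, 40.6, 36.0 and 45.0, with no difference over 0.34.

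Malat1 and Neat1 are neighbours on the minus strand of chromosome 19, Malat1 at chr19:5795690-5802672 and Neat1 at chr19:5824708-5845478. Malat1 is mostly a single-exon RNA of 6983 bases in its longest form. Neat1 is made as a short form that ends in a poly(A) tail and a long form of 20771 bases in this annotation, and the long form is the one that paraspeckles require. The table gives 1 value per gene, so the forms cannot be told apart.

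Malat1 differed between the sites in opposite directions in the mice. It was at 33.6 FPKM in AOC3 and 15.8 in AOC3-LN, against 13.2 in AOC11 and 25.6 in AOC11-LN. The highest and lowest values were thus both in primary lines, and both lymph node lines lay between them. The lymph node line differed from the primary line by -0.98 on the log2 scale in mouse 3 and by 0.91 in mouse 11, each just inside 2-fold after normalization, although the deposited values differed by 2.12-fold in mouse 3. Between the mice Malat1 was higher by 1.33 in AOC3 than in AOC11, and the lymph node lines differed by -0.55. Each value rests on an estimated 3040 to 7720 fragments, and the exact Poisson intervals of 32.8 to 34.3 FPKM in AOC3 and 15.3 to 16.4 in AOC3-LN, which cover counting error only, do not overlap.

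Neat1 varied less, at 46.8 FPKM in AOC3 and 32.6 in AOC3-LN, against 55.7 in AOC11 and 63.8 in AOC11-LN. Both mouse 11 lines were above both mouse 3 lines, the reverse of Gas5, Snhg1, Snhg12 and Pvt1, and the largest gap was between the lymph node lines (-0.89). The lymph node line differed by -0.51 in mouse 3 and by 0.20 in mouse 11. The ratio of Malat1 to Neat1 in FPKM was 0.717 in AOC3 and 0.484 in AOC3-LN, against 0.237 in AOC11 and 0.401 in AOC11-LN, so Neat1 was the more abundant per length in each library.

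The library method bears on both RNAs. Instead of a poly(A) tail, Malat1 ends in a triple helix formed with an A-rich stretch written in the genome, and long Neat1 ends in a like structure, so their recovery by selection for poly(A) RNA can differ from that of mRNA. The longest run of A in the longest Malat1 transcript is shown in capitals, from GENCODE M21 at chr19:5795968-5796039 on the minus strand.
Malat1: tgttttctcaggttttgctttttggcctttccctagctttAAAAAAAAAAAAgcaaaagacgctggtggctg
It has 12 bases and lies 298 bases before the annotated end, and it is the single run of 10 or more A in this transcript. The longest run in the long Neat1 transcript has 7 bases. Recovery was not measured here.

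Reads on the opposite strand add a further limit. Gm37376, an unclassified entry on the plus strand inside Malat1, measured 23.6, 17.3, 14.6 and 26.3 FPKM in AOC3, AOC3-LN, AOC11 and AOC11-LN, and its ratio to Malat1 is near 1 in the last 3 of these lines. The library kit keeps strand, but the counting is not stated to have used it, and without it the reads of the pair cannot be told apart. Frmd8, a protein-coding gene next to Neat1, was at 10.8, 11.2, 16.0 and 21.9 FPKM, highest in AOC11-LN and lowest in AOC3. Like Malat1 it was higher in AOC11-LN than in AOC11 (0.45), but unlike Malat1 it was not lower in AOC3-LN (0.15). Of 56 expressed entries within 500 kb of the Malat1 start, 51 were higher in AOC11-LN than in AOC11 (median 0.54, all genes -0.02). Past 2-fold 8 were higher and 0 lower, where 4.97% and 3.14% of all genes were. In mouse 3, 40 were higher in AOC3-LN (median 0.14, all genes 0.02). Whether Malat1 shifted with its region was not tested.

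The protein partners come from lists chosen with earlier results of these data known, so nothing is read from their counts. Of 24 paraspeckle proteins and 16 nuclear speckle proteins, 24 and 16 passed the filter and none was past 2-fold in any comparison. Of all genes 5.53% and 8.11% were past 2-fold between the sites in mouse 3 and mouse 11. The shares were 11.9% between the primary lines and 16.3% between the lymph node lines. In AOC11-LN 14 of the 16 speckle proteins and 14 of the 24 paraspeckle proteins were lower than in AOC11, with medians of -0.14 and -0.06. Among paraspeckle proteins the largest differences belonged to Pspc1, a core component (14.0, 10.5, 26.1 and 19.6 FPKM in AOC3, AOC3-LN, AOC11 and AOC11-LN, with differences of -0.80 and -0.73 between the mice), Zc3h6 (3.87, 2.54, 1.86 and 1.44) and Fam98a (24.5, 28.4, 26.6 and 18.4). Pspc1 and Neat1 were thus both lower in the mouse 3 lines, and Zc3h6 was higher. Among speckle proteins they belonged to the splicing factor genes Srrm1 (112, 112, 74.6 and 73.2 FPKM), Srsf7 (142, 155, 152 and 115) and Sf3b1 (53.4, 44.4, 67.5 and 63.1).

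Pvt1 spans 340111 bases at chr15:62037986-62378096 on the plus strand and starts 47612 bases beyond the end of Myc. It was at 16.6 FPKM in AOC3 and 15.2 in AOC3-LN, against 8.36 in AOC11 and 7.91 in AOC11-LN. The lines of a mouse lay close together, with lymph node differences of -0.04 and -0.09, and the mouse 3 lines lay above the mouse 11 lines by 0.93 and 0.98, just under 2-fold. Myc, the growth-promoting transcription factor, was at 164, 157, 130 and 94.9 FPKM in the same order, higher in the mouse 3 lines by 0.34 and 0.78. Pvt1 was thus 0.101, 0.0969, 0.0645 and 0.0834 of Myc per length. An entry inside the first part of Pvt1, Gm27913, was at 8.69, about 0, 16.7 and 2.97 FPKM, and as its exons overlap those of Pvt1 on the same strand its reads are uncertain. On the far side the nearest protein-coding gene, Gsdmc, was near 0 in every line (at most 0.0324 FPKM).

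Miat, known from neurons and retina, was at or close to 0. It lies at chr5:112213228-112229395 on the minus strand. It was listed at 0 in AOC3 and AOC11-LN, at 0.00086 FPKM in AOC11 and at 0.119 in AOC3-LN. On the longest transcript the last value corresponds to about 30 fragments, with an exact Poisson interval of 0.0793 to 0.168 FPKM, and the other 3 to fewer than 1, where the exact Poisson interval of a count of 0 reaches 0.0121 to 0.0126 FPKM. These limits cover counting error only and depend on the assumed transcript. Gm26953, which overlaps Miat on the opposite strand, was listed at 0 in all lines.

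U90926 had the widest spread of the 8. This short RNA, known for its induction by bacterial products in mouse macrophages, has 3 annotated transcripts of 400 to 524 bases at chr5:92209893-92215408 on the minus strand. It was at 69.0 FPKM in AOC11, 3.16 in AOC11-LN, 0.415 in AOC3 and 0.386 in AOC3-LN. The mouse 11 primary line stood far above the other lines, its lymph node line was intermediate, and the mouse 3 lines lay within counting error of each other.

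The values correspond to about 790, 37, 5 and 4 fragments of the 524-base transcript, with exact Poisson intervals of 64.3 to 74.0, 2.20 to 4.32, 0.134 to 0.966 and 0.105 to 0.982 FPKM. AOC11 exceeded AOC11-LN 21.8-fold in FPKM (counting interval 15.9 to 31.5) and AOC3 166-fold (71.1 to 515). AOC11-LN exceeded AOC3-LN 8.19-fold (2.93 to 31.5), and AOC3 and AOC3-LN differed by 1.07-fold (0.232 to 5.44). On the normalized log2 scale, which the pseudocount compresses for such low values, the differences were -4.18 for AOC11-LN minus AOC11, -5.62 for AOC3 minus AOC11, -1.39 for AOC3-LN minus AOC11-LN and 0.05 for AOC3-LN minus AOC3. Of 8 leukocyte markers 1 reached 1 FPKM, Cd68, at 6.15 FPKM in AOC11, 4.45 in AOC11-LN, 12.97 in AOC3 and 8.79 in AOC3-LN, and it made up nearly all of their summed level (6.20, 4.51, 13.0 and 8.89). The pan-leukocyte gene Ptprc was at 0.0392, 0.0488, 0.00666 and 0.0640 FPKM in the same order, and Adgre1, the F4/80 antigen of macrophages, was listed at 0 in every line. The part of other cells in the U90926 values was not tested.

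The 250 bases before the U90926 start are shown because the gene is known for inducible transcription. They are taken from RefSeq on GRCm38.p6 at chr5:92215409-92215658, minus strand, with matches to the C/EBP motif TTNCNNNAA in capitals.
U90926: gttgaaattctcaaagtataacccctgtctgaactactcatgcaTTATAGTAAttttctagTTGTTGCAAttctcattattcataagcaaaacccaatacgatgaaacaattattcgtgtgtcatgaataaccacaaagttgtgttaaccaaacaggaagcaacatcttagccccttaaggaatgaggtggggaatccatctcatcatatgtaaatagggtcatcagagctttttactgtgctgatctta
Both strands were searched, and the motif occurred 2 times here and in 32.9% of all windows of this length. The TATA box TATAAA, the AP-1 motif TGANTCA and the NF-kB consensus were not found in this window, and they occurred in 12.4%, 6.75% and 3.90% of all windows. A match is a description of letters and not a binding site.

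Inflammatory genes were listed beside U90926 because of its known induction. The list was chosen with earlier results of these data known, so its counts and medians are descriptions and nothing is read from them. Of 19 listed, 16 passed the filter. In AOC11-LN 11 of the 16 were lower than in AOC11 past 2-fold and none was higher, where 3.14% of all genes were lower and 4.97% higher, with a median difference of -1.81 against -0.02 over all genes, and all 16 were below 0. In AOC3-LN 8 were lower than in AOC3 and 2 higher past 2-fold, where 3.42% of all genes were lower and 2.11% higher, with a median of -1.10 against 0.02. Under the other scalings the counts lower were 10 to 11 and 8 to 10. The largest differences were those of Nos2, the inducible nitric oxide synthase (22.3, 0.551, 3.36 and 2.57 FPKM in AOC3, AOC3-LN, AOC11 and AOC11-LN), of Lcn2, an iron-scavenging protein of inflamed epithelium (65.1, 3.50, 33.2 and 10.3), and of the neutrophil attractant Cxcl3 (3.93, 1.37, 31.9 and 1.78).

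Cxcl3 resembled U90926 in being highest in AOC11, lower in AOC11-LN (-3.70) and lower in AOC3 (-2.73), but Nos2 and Lcn2 were highest in AOC3, where U90926 was low. Further genes, picked after their values were seen, were Ptgs2, the inducible cyclooxygenase, at 4.91, 53.2, 52.0 and 4.95 FPKM, and the attractant Cxcl5 at 27.3, 6.15, 180 and 37.1. In mouse 3 the lymph node difference of U90926 was 0.05, but it rests on about 5 and 4 fragments, and its counting interval of 0.232 to 5.44 for AOC3 over AOC3-LN leaves a shift like that of the list undetectable at this depth.

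**Figure D5:**
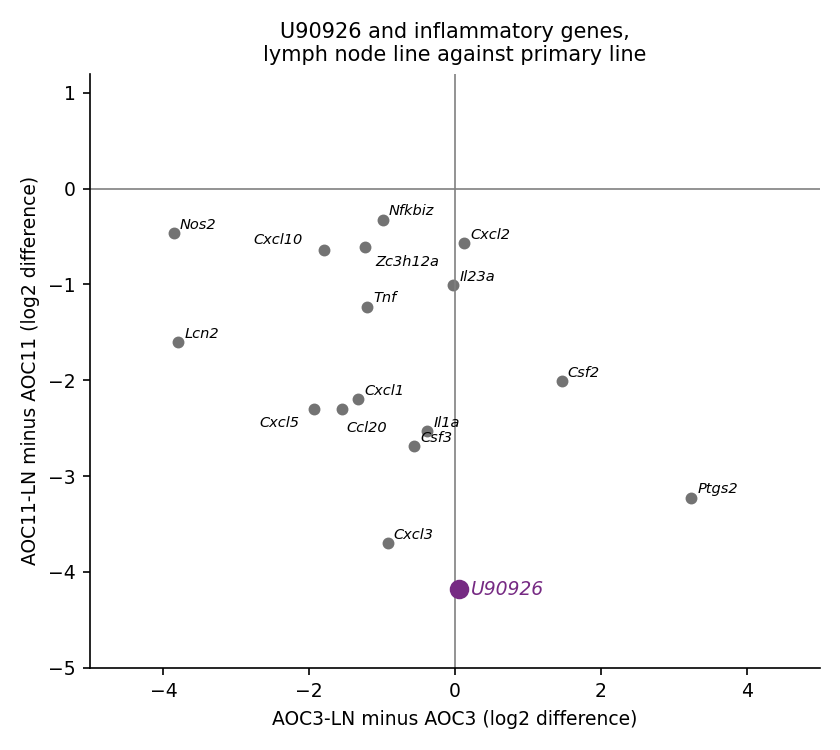
Normalized log2 difference of the lymph node line from the primary line in mouse 3 (horizontal) and mouse 11 (vertical) for U90926, in purple, and the 16 inflammatory genes that passed the filter, in grey. All lie below 0 in mouse 11, U90926 lowest at -4.18, and in mouse 3 they range from Nos2 at -3.86 to Ptgs2 at 3.23.

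The neighbours of U90926 also differed between the mice. Of 15 expressed entries within 500 kb of its start, 14 were lower in AOC3 than in AOC11 and 12 were lower in AOC3-LN than in AOC11-LN, with median differences of -0.72 and -0.68, where those of all genes were -0.02 and 0.03. Past 2-fold 4 and 5 were lower, as were 5.69% and 8.69% of all genes, and none was higher. With other scalings 0 to 1 and 3 to 4 of the 15 were above 0. Adjacent Uso1, a vesicle tether, was at 25.7, 26.1, 42.3 and 29.9 FPKM in AOC3, AOC3-LN, AOC11 and AOC11-LN, and Ppef2 was low (0.495 to 1.34). Those lower past 2-fold at both sites were Cdkl2 (3.10, 2.02, 12.7 and 9.23), Naaa, an amide hydrolase (5.68, 3.29, 14.9 and 15.5), the attractant Cxcl10, which is also in the inflammatory list (3.29, 0.178, 11.2 and 6.90), and Shroom3, a regulator of cell shape (7.62, 6.03, 24.9 and 16.4). Between the lymph node and primary lines of mouse 11, 13 of these 15 were below 0, as U90926 was (-4.18). Their median was -0.33, against -0.02 over all genes. None of the 15 was past 2-fold, where 3.14% of all genes were lower and 4.97% higher, so nothing is read from that count.

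Genes with the profile most like each member were found by the Euclidean distance of centred log2 values over the 4 lines, among all 14165 entries. For Malat1 they were Tnfrsf1b, Cutal and Gadd45a, at distances of 0.0983 to 0.113 log2 units. Gadd45a, a p53 target induced by DNA damage, was at 37.4, 19.4, 15.6 and 27.6 FPKM in AOC3, AOC3-LN, AOC11 and AOC11-LN. For Neat1 they were Kifap3, Zfand1 and Ocln (0.0438 to 0.0691), for Gas5 6030458C11Rik, S100pbp and B4galt1 (0.0387 to 0.0519), for Snhg1 Gm8652, Tmem42 and Cebpb (0.0270 to 0.0417), and for Pvt1 Cflar, Gm40847 and Snx5 (0.0225 to 0.0684). Cflar, an inhibitor of caspase activation at death receptors, measured 50.2, 49.3, 27.7 and 25.1 FPKM.

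Snhg12 and U90926 lay at larger distances from their nearest genes. The distance is not scaled to the spread of a profile and grows with it, and both genes spread widely over the lines. No lack of a match is therefore read from these distances. For Snhg12 the nearest were Gm16702, Gm49329 and Oaf at 0.216 to 0.330, and Oaf measured 74.7, 75.1, 13.9 and 19.9 FPKM. For U90926 the nearest were the small RNA entries Mir1291, Gm25509 and Snora15 at 1.19 to 1.25, whose FPKM values rest on very short lengths. The profile of Miat, near 0 throughout, was matched by entries that hardly vary (Gm17794, Gm9770 and Zcchc7). With 4 points and 14165 entries, such likeness is a description of these libraries.

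Other long noncoding RNAs were less abundant as a rule. Of 40 symbols listed, 31 had entries and 13 passed the filter. The share of all genes past 2-fold ran from 5.53% to 16.3% over the comparisons, and nothing is read from the counts of this list. Between AOC3-LN and AOC3, Jpx was higher past 2-fold (1.03) and Lncenc1 lower (-1.20), and in the AOC11 pair none passed. Between the primary lines Rab26os was higher in AOC3 (1.04) and Dubr lower (-1.22), and between the lymph node lines Dubr and Mir22hg were lower in AOC3-LN (-1.29 and -1.17). Jpx and Rab26os fell under 2-fold with either of the other scalings. The largest differences were those of Dubr (1.34, 1.12, 4.27 and 4.95 FPKM in AOC3, AOC3-LN, AOC11 and AOC11-LN), Lncenc1 (3.44, 0.785, 1.48 and 1.24) and the miRNA host Mir22hg (1.79, 1.17, 4.16 and 4.63). Dubr and Mir22hg were thus higher in the mouse 11 lines, like Neat1. Tug1, a widely expressed nuclear RNA chosen here for its evenness, was at 23.2, 23.3, 22.8 and 27.0 FPKM.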

How the data were processed

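RNA from cultured cells was sequenced as paired ends from poly(A)-selected, stranded libraries, 1 per line. Per the labels and the study's methods, the authors trimmed reads with Trim Galore, mapped them to mm10 with TopHat2 and deposited FPKM values from Cufflinks on GENCODE M21. Here log2(FPKM + 1) was quantile-normalized over all 34721 entries, and entries that reached 1 FPKM in any line were kept (Python 3.11.15, numpy 2.4.6, pandas 2.3.3). With 1 library per line no test was run. Depth was estimated from the spacing of low values of single-transcript genes over 800 bases; 71.1% to 74.1% of them lay within 0.1 of a whole fragment. The code was tested on simulated data.

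The members and all lists were chosen with earlier results of these data known. Named besides the members were the 3 genes of each list with the largest difference, the nearest or overlapping genes (1 of them is not reported here), and the 3 nearest profiles; the 500 kb windows and genes said to be picked for a value were added after seeing the data. Alternatives were a pseudocount of 0.1, no quantile normalization, median scaling, no filter, a 5 FPKM filter and a 1.5-fold threshold.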

Additional observations from a re-analysis of the deposited data

Results flagged for a closer look

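The shift from the primary to the lymph node line had opposite signs in the 2 mice for 4 of the 7 expressed members. The share of all expressed entries with opposite signs was not computed, so nothing is read from this count. The shift in mouse 11 minus that in mouse 3 was 1.89 log2 units for Malat1, 0.72 for Neat1, 0.41 for Gas5 and -4.23 for U90926. With 1 library per line, these differences were not tested. For Gas5 the mouse 11 shift was 0.08 and for U90926 the mouse 3 shift was 0.05, so the opposite signs of these genes rest on a shift close to 0, and each of these small shifts changed sign under another scaling. For Malat1 the shifts were -0.98 and 0.91, and for Neat1 -0.51 and 0.20, and both kept their signs under the other pseudocount and scalings.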

How the results depend on the processing

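No paired analysis was run: the replicate number only names a library, and a fit with site and mouse as terms would leave 1 residual degree of freedom over genes chosen with their values known. Of 28 member differences recomputed under up to 5 alternatives, 137 of 140 values kept their sign and 135 kept their side of the 2-fold threshold. Dropping the filter or raising it to 5 FPKM cannot move a member difference, because normalization came before the filter. The values from those alternatives are therefore the same by construction, and only the pseudocount and the scalings could change a value. The 3 other signs were those of Pvt1 in the mouse 3 pair (0.04 under median scaling), Gas5 in the mouse 11 pair (-0.05 under median scaling) and U90926 in the mouse 3 pair (-0.03 without quantile normalization). The 5 values that passed 2-fold only under an alternative were Malat1 in AOC3-LN minus AOC3 (-1.02 with a pseudocount of 0.1 and -1.04 without quantile normalization), which made that count 1 in place of 0, and Pvt1 between the mice (1.01 and 1.06 with a pseudocount of 0.1, 1.12 under median scaling at the lymph node). U90926 ranged from -7.11 to -5.62 in AOC3 minus AOC11, since its low values depend on the pseudocount. At 1.5-fold the counts of members were 1, 2, 5 and 4 in place of 0, 1, 3 and 2, which follows from the lower threshold. With the pseudocount of 0.1 the share of all genes past 2-fold was 10.2%, 14.6%, 18.6% and 23.8%. Median scaling moved the median of all genes to 0.11 in AOC3-LN minus AOC3 and to 0.14 in AOC3-LN minus AOC11-LN. Precision is limited by the single library per line and, for U90926 and Miat, by few fragments.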
